A study of Mus musculus with 2 samples.

Results

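Hepatocytes of mouse liver were compared by the GFP image signal recorded over each segmented cell. The deposited cell tables hold 1 such signal per cell and per stain, and the GFP value was divided by the volume of the cell. Cells counted as hepatocytes had at least 10 gene counts, a volume of at least 50 cubic µm and at least 5 counts summed over 7 liver genes (F2, Apoh, Fga, Fgb, Serpina1a, Igfbp2 and Igfbp4). Of 111966 segmented cells, 25499 passed the first 2 limits and 13794 passed all 3. Within each section, the 10% of these cells with the most GFP signal per volume formed the GFP-high group, and the lowest 50% formed the GFP-low group. This gave 498 GFP-high and 2490 GFP-low cells of 4980 in section 1, and 881 and 4407 cells of 8814 in section 2. The groups were chosen by the GFP values themselves, so their difference in GFP is a description and was not tested.

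The data are MERFISH measurements, in which single RNA molecules are identified in tissue by a barcode read over rounds of imaging. The panel held 500 genes and 50 blank barcodes, which stand for no gene and count false identifications. Both sections are mouse liver, in 1 group, labelled replicates 1 and 2 with the tag 2d. The sources used here do not give strain, genotype, age or treatment, nor any GFP gene or vector, and no meaning was read into the tag. GEO's design field for the series speaks of metastasis-bearing mice under treatment, and no label ties either section to such a treatment. Nothing in the labels says whether the sections come from separate animals, so p-values may measure technical spread only. With 2 sections and 1 group, the GFP-high and GFP-low cells of a section were compared with each other.

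GFP is a green fluorescent protein used to mark cells that carry a reporter. The title of the study names gene engineering in the living liver, where a reporter can show which hepatocytes were changed. Hepatocytes differ in gene use along the lobule, from the portal vein, where blood enters, to the central vein. Periportal hepatocytes carry much of the urea cycle and gluconeogenesis, and pericentral hepatocytes make glutamine and hold many cytochrome P450 enzymes. In fixed liver, light in the green channel can also come from the tissue itself. The labels do not say whether the GFP values come from a protein, an antibody or an RNA probe, and the same holds for a stain column named Ttr, after the plasma protein transthyretin.

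The cell rule was checked against 11 hepatocyte markers that it did not use. In section 1 their summed level was 1388 per 10000 gene counts in cells passing the rule and 756 in the other kept cells, and 9 of 11 were higher. Hnf4a, a master transcription factor of hepatocytes, stood at 51.3 and 21.8 there. In section 2 the summed level was 2340 against 2084, and 7 of 11 were higher. Hnf4a was at 42.7 and 38.5 in that section. Arg1 and Hal were lower in the cells that passed in both sections. In section 2 these shares therefore differed only slightly. The totals include the 7 rule genes, which can by itself lower the share of other genes in cells that pass. How well the rule separates hepatocytes from other cells is thus not settled by these shares.

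GFP signal per volume varied little between hepatocytes. In section 1 the 1st and 99th percentiles lay at 0.85 and 1.48 times the section's median, and the brightest cell was at 2.49 times. The 90th percentile, where the GFP-high group begins, was at 1.19 times the median. In section 2 the 1st and 99th percentiles lay at 0.955 and 1.35 times the median, and the 90th percentile was at 1.04 times. Section 2 also held a few very bright cells, with the brightest at 12.7 times the median. No gap marked off a separate positive population at the threshold. The dimmest GFP-high cell of section 1 was at 235060 and the next cell below it at 234959, in deposited signal units per volume, against 105232 and 105230 in section 2. At the upper edge of the GFP-low group the values were 197277 inside and 197283 outside in section 1, and in section 2 both rounded to 101413.

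**Figure D1:**
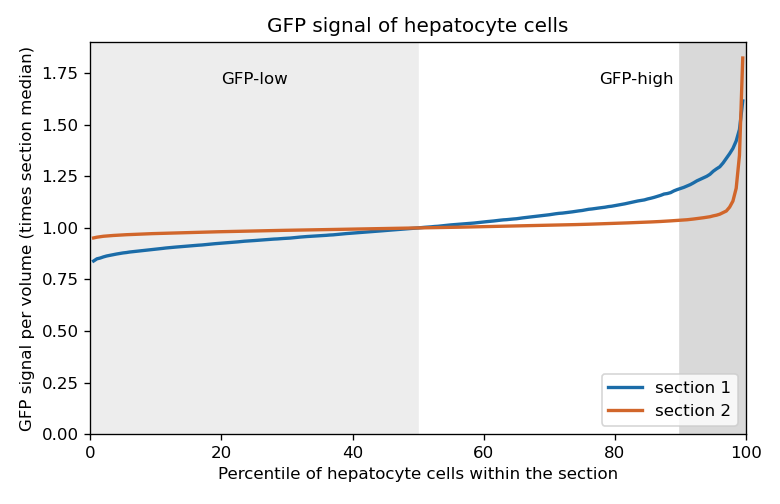
GFP signal per volume of hepatocyte cells, as a multiple of the section's median (vertical axis), by percentile of cells within the section (horizontal axis), with 1 line per section. Shaded bands mark the GFP-low and GFP-high groups; both lines rise without a step up to the 90th percentile, at 1.19 and 1.04 times the median.

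The median GFP signal per volume was 1.36 times higher in GFP-high than in GFP-low cells of section 1 and 1.07 times higher in section 2. The same cells were brighter in most of the other stains. GFP had the narrowest range of the 7 stains: split by its own signal in the same way, Ttr differed 5.25 and 1.61 times, DAPI 4.02 and 2.60 times and PolyT 1.74 and 1.62 times. Ttr signal per volume was 5.03 times higher in GFP-high cells of section 1 and 1.32 times higher in section 2. Its log2 ratio was 1.36 ± 1.36 (SD, n = 2), so its size differed widely between the sections. The 3 membrane stains were also higher in both sections. Cellbound1 was 1.47 and 1.28 times higher, Cellbound2 1.76 and 1.48 times, and Cellbound3 2.92 and 1.40 times.

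The 2 stains planned as a check on shared signal behaved differently in the sections. DAPI, which binds DNA, was 1.56 times higher per volume in GFP-high cells of section 1. In section 2 it was 0.991 times the level of GFP-low cells. PolyT, which marks polyadenylated RNA, was 1.39 times higher in section 1 and 1.06 times higher in section 2. The mean log2 ratios were 0.31 ± 0.46 for DAPI and 0.28 ± 0.27 for PolyT (SD, n = 2), within or near the spread between sections. Cells were also ranked within their own field of view, using only fields with at least 20 hepatocyte cells. This kept 301 GFP-high and 1747 GFP-low cells in section 1, and 646 and 3595 in section 2. In that ranking DAPI was below the GFP-low level in both sections, at 0.929 and 0.918 times. The part of the smaller set of cells in this change was not tested. Ttr stayed higher under that ranking, at 3.20 and 1.19 times, as did Cellbound1, at 1.35 and 1.13 times. With only 2 sections, no exact test of these ratios can reach 0.05.

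**Figure D2:**
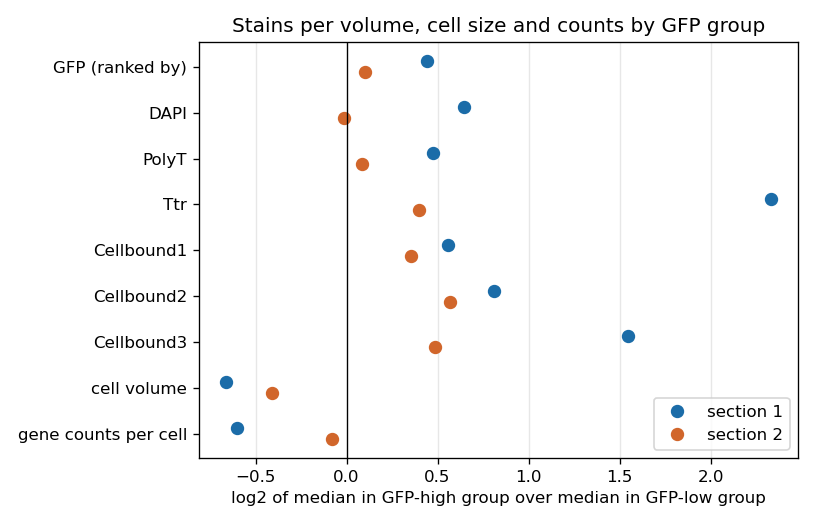
Log2 of the median in GFP-high cells over the median in GFP-low cells (horizontal axis) for each stain per volume, for cell volume and for gene counts per cell (rows), with 1 point per section. Ttr is far to the right in section 1 (5.03 times), DAPI is on both sides of 0, and volume and counts are left of 0 in both sections.

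Across hepatocyte cells, the Spearman correlation of GFP with Ttr, both per volume, was 0.883 in section 1 (4980 cells) and 0.511 in section 2 (8814 cells). It was 0.672 and 0.610 for Cellbound1, 0.522 and 0.116 for PolyT, and 0.341 and 0.00517 for DAPI. These values share the cell's volume as divisor and the same images, and are given as a description. Before division by volume, GFP correlated at 0.917 and 0.953 with Cellbound1 and at 0.924 and 0.896 with PolyT. Of the GFP-high cells, 68.1% in section 1 and 40.2% in section 2 were also among the 10% brightest in Ttr. The same share was 14.9% and 10.3% for DAPI and 30.7% and 14.2% for PolyT, and unrelated rankings would give 10%.

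GFP-high cells were smaller. Their median volume was 888 cubic µm against 1405 in GFP-low cells of section 1, and 1085 against 1439 in section 2. They held a median of 33 gene counts against 50 in section 1 and 18 against 19 in section 2. Per 1000 cubic µm the median was 39.6 counts against 39.1 in section 1 and 18.8 against 13.7 in section 2. GFP signal per volume had a Spearman correlation of -0.36 and -0.30 with volume, which is itself the divisor. The effect of depth and size on the gene results was addressed by ranking within 5 bins of counts and within 10 bins of volume, given with those results.

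GFP-high hepatocytes lay together in the tissue. In section 1, 50% of them were in 26 of 321 fields of view, which held 18.1% of the hepatocyte cells. In section 2, 28 of 399 fields held 50% of them and 18.9% of the cells. Among fields with at least 20 hepatocyte cells, the GFP-high share ran from 0 to 85.7% in section 1 (median 4.65%, 107 fields) and from 0 to 95% in section 2 (median 4.35%, 153 fields). In section 1, 38 of those fields held no GFP-high cell, and in section 2, 42. Around a GFP-high cell, 34.7% of the hepatocyte neighbours within 50 µm were GFP-high too in section 1, against 3.86% around a GFP-low cell. The values in section 2 were 35.2% and 3.22%. These shares cover only cells with at least 5 hepatocyte neighbours. Such cells made up 74.7% of GFP-high and 59.6% of GFP-low cells in section 1, and 76.3% and 81.1% in section 2. Field of view is an imaging tile, and tissue patches and image tiles cannot be told apart from these counts alone.

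**Figure D3:**
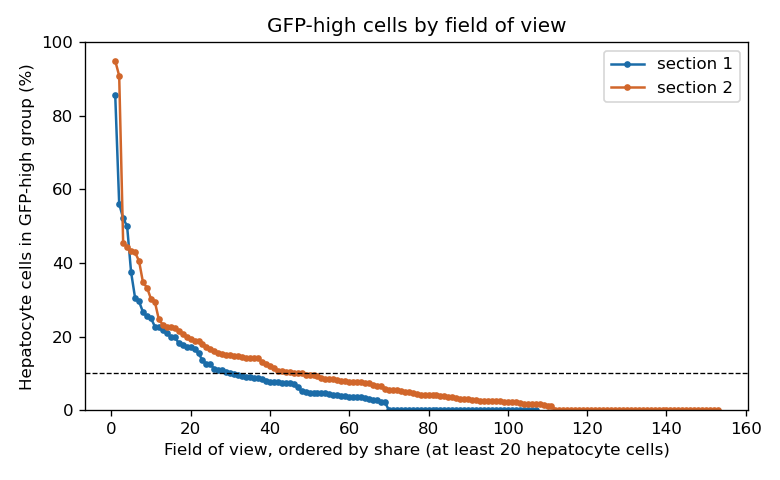
Share of hepatocyte cells in the GFP-high group (vertical axis, percent) for each field of view with at least 20 hepatocyte cells, ordered from highest to lowest within each section (horizontal axis). The dashed line is 10%; a few fields reach 85.7% and 95%, and 38 and 42 fields hold none.

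The place of a hepatocyte along the lobule was scored from its neighbours, to see whether the GFP-high cells belonged to one zone. The score was a log2 ratio of counts over the other hepatocyte cells within 50 µm. It set 3 pericentral genes (Glul, Cyp2e1 and Gulo) against 3 periportal genes (Pck1, Ass1 and Hsd17b13). Cells with at least 5 such neighbours were split by score into 3 equal bins per section, called periportal, middle and pericentral. The bins are ranks of the score and not zones outlined in the tissue. They held 1160 cells each of 4980 in section 1, and 2418, 2417 and 2417 of 8814 in section 2. In section 1, 10.9% of periportal cells (95% Clopper-Pearson interval 9.21 to 12.9), 11.6% of middle cells (9.85 to 13.6) and 9.48% of pericentral cells (7.86 to 11.3) were GFP-high. In section 2 the shares were 9.10% (7.98 to 10.3), 10.4% (9.24 to 11.7) and 8.27% (7.21 to 9.45). The intervals of the periportal and pericentral bins overlapped in each section. The order of the bins was not stable across all settings. It was the same in both sections with neighbours within 30 µm and with GFP ranked within 10 bins of volume. It changed with GFP ranked within fields of view and with a radius of 100 µm. With neighbours within 100 µm, the periportal share was the smallest in section 1 (8.95%) and the largest in section 2 (10.6%). Over both sections the periportal share was 10.0% ± 1.31 and the pericentral share 8.88% ± 0.854 (SD, n = 2). The intervals cover counting error only and take cells as independent, although GFP-high cells cluster.

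Blank barcodes followed GFP in section 1 and not in section 2. GFP-low cells of section 1 held 534 blank counts, or 32.4 per 10000 gene counts, and GFP-high cells held 296, or 140 per 10000. Over 10 equal bins of GFP signal the blank level in section 1 went from 22.95 in the dimmest bin to 43.2 in the fifth and 140 in the brightest. In section 2 the levels were 21.1 and 22.6 per 10000, from 202 and 43 counts. The highest single blank reached 29 counts in the GFP-high sum of section 1 and 10 in that of section 2. Summed over the 50 blanks, the false-count level in GFP-high cells of section 1 was 4.33 times that in GFP-low cells, on unscaled counts. Blanks were uneven: the highest single blank stood at 5.09 per 10000 in GFP-low and 13.7 in GFP-high cells there. The background of a given gene was not measured.

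Gene counts were summed per section and group, giving 4 sums. The GFP-low and GFP-high sums held 165054 and 21136 gene counts in section 1 and 95918 and 19001 in section 2. Of 332 genes with at least 50 counts over the 4 sums, 15 differed between GFP-high and GFP-low cells at an adjusted p under 0.05 (edgeR quasi-likelihood test with section as a block, Benjamini-Hochberg), or 4.52%. Higher were 5 genes (1.51%) and lower were 10 (3.01%), and 14 of the 15 moved the same way in both sections. The 15 were picked by a test on these same 2 sections, which favours genes whose sections agree. Their agreement is therefore a description and not a replication, and the share over all 332 genes is not given. The test rests on 1 residual degree of freedom, with the spread moderated across genes. DESeq2 called 0 of the 332, with 11 at an unadjusted p under 0.05 against 54 in edgeR. Without TMM scaling 0 were called as well (43 unadjusted), and without section as a block 0 (4 unadjusted).

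The 5 genes that rose were Fgf23, Gp1bb, Rab17, Gzma and Arg1. Levels below are TMM-scaled counts per 10000. Arg1, the last enzyme of the urea cycle, was at 5.13 in GFP-low and 16.3 in GFP-high cells of section 1, and at 18.8 and 31.9 in section 2. It was higher in GFP-high cells within each section, although GFP-low cells of section 2 exceeded GFP-high cells of section 1. Its log2 difference was 1.19 with SE 0.35 (edgeR adjusted p = 0.0204). Over the 10 bins of GFP, unscaled, Arg1 went from 5.99 in the dimmest to 17.0 in the brightest in section 1 and from 15.1 to 25.8 in section 2.

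Fgf23, a hormone of phosphate balance made mainly in bone, was at 2.85 and 18.1 in section 1 and at 1.95 and 4.55 in section 2, where the GFP-high sum held 7 counts. The log2 difference was 2.17 with SE 0.51 (edgeR adjusted p = 0.00391). Gp1bb, a subunit of a platelet receptor, was at 1.97 and 10.8 in section 1 and at 4.15 and 11.7 in section 2. The log2 difference was 1.99 with SE 0.48 (edgeR adjusted p = 0.00391). Both genes were higher in GFP-high cells of each section. Rab17, a small GTPase of transport in polarised epithelial cells, was at 3.29 and 17.2 in section 1 and at 7.08 and 11.7 in section 2. Its log2 difference was 1.63 with SE 0.39 (edgeR adjusted p = 0.00391). Gzma, a protease of cytotoxic lymphocytes, was at 5.26 and 26.6 in section 1. In section 2 it went the other way, at 2.69 and 1.30 from 22 and 2 counts. Its edgeR log2 difference of 1.62 with SE 0.43 (adjusted p = 0.00736) thus rests on section 1, and section 2 alone gave -0.93.

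These rises stand beside the rise in blanks. On the same TMM scale, blanks were 5.70 times higher in GFP-high cells of section 1, a log2 difference of 2.51, and 1.13 times higher in section 2, a log2 difference of 0.18. In section 1 the log2 differences were 2.57 for Fgf23, 2.33 for Gp1bb, 2.31 for Rab17, 2.29 for Gzma and 1.62 for Arg1, so that only Fgf23 exceeded the blanks. In section 2 they were 1.13 for Fgf23, 1.45 for Gp1bb, 0.71 for Rab17 and 0.75 for Arg1, all above the blanks. In the GFP-high sums, 4 of the 5 higher genes exceeded the highest blank in section 1 and 3 of 5 in section 2. Of the 10 lower genes, 2 exceeded it in section 1 and 3 in section 2. Adpgk, Notch1, Itgb2, Sorl1, Spib, Itgam and Apobec3 did so in neither section, so their GFP-high levels lie in the range of single blanks. Among cells without a single blank count, 11 genes were called, 9 of them among the 15, with Arg1, Fgf23, Gp1bb and Gzma included. The 15 called genes were also at a lower share of counts in hepatocyte-rule cells than in the other kept cells of both sections. Arg1 was at 0.875 and 0.865 times. The rule selects cells by counts of its own genes, which can by itself lower the share of other genes in the cells that pass. These shares are not given for all tested genes, so nothing particular to the 15 was read from them.

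**Figure D4:**
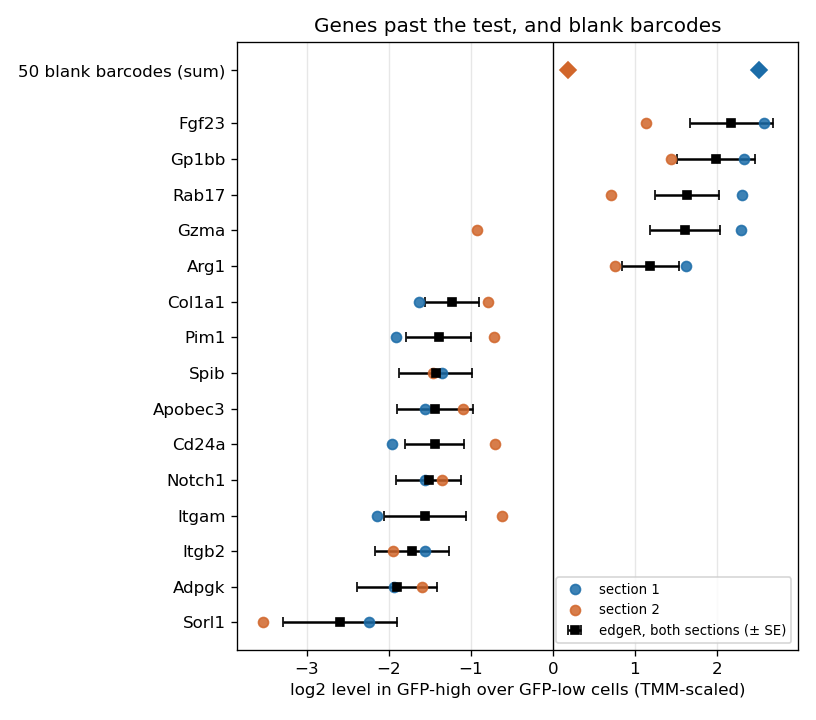
Log2 level in GFP-high over GFP-low cells (horizontal axis, TMM-scaled) for the 15 genes past the test (rows): black squares are the edgeR estimate ± SE, coloured circles each section, and diamonds the sum of the 50 blank barcodes. The blanks of section 1 lie at 2.51, level with the higher genes; Gzma has its sections on opposite sides of 0, and the section 2 point of Sorl1 rests on 0 counts with a prior count of 2.

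Of the 10 genes that fell, 4 are on the lists of blood or stellate cell markers (Cd24a, Itgb2, Itgam and Col1a1). They are 1 of 5 tested erythroid, 2 of 9 monocyte and neutrophil and 1 of 5 stellate and mesenchymal markers. Over all 332 genes, 3.01% were called lower. Cd24a, a surface protein of erythroid and B cell precursors, was at 57.1 in GFP-low and 14.5 in GFP-high cells of section 1, and at 19.2 and 11.7 in section 2. Its log2 difference was -1.44 with SE 0.36 (edgeR adjusted p = 0.00616). Col1a1, a chain of fibrillar collagen made by stellate cells and fibroblasts, was at 53.8 and 17.2 in section 1 and at 40.5 and 23.4 in section 2. Its log2 difference was -1.23 with SE 0.33 (edgeR adjusted p = 0.00775). For both genes the GFP-high level was below the GFP-low level in each section.

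Of the leukocyte integrins, Itgb2 and Itgam passed the test, and Itgal did not (log2 difference -0.76, SE 0.36, edgeR adjusted p = 0.250). Itgb2, the shared beta chain, was at 21.7 and 7.23 in section 1 and at 8.18 and 1.95 in section 2 (log2 difference -1.71, SE 0.45, edgeR adjusted p = 0.00736). Itgam, its partner on myeloid cells, was at 12.8 and 2.71 in section 1 and at 6.10 and 3.90 in section 2 (log2 difference -1.56, SE 0.50, edgeR adjusted p = 0.0434). Spib, a transcription factor of B cells and plasmacytoid dendritic cells, was at 18.8 and 7.23, and at 7.57 and 2.60 (log2 difference -1.43, SE 0.45, edgeR adjusted p = 0.0394). In section 2 the GFP-high sums of Itgb2, Itgam and Spib held only 3, 6 and 4 counts.

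The other 5 were also lower in both sections. Notch1, a receptor of cell fate signalling, was at 33.8 and 11.3 in section 1 and at 13.7 and 5.20 in section 2, with a log2 difference of -1.51 (SE 0.40). Pim1, a cytokine-induced kinase, was at 26.1 and 6.77 and at 14.0 and 8.46, with a log2 difference of -1.39 (SE 0.40). Adpgk, an ADP-dependent glucokinase, was at 17.9 and 4.52 and at 6.35 and 1.95, with a log2 difference of -1.90 (SE 0.49). The difference was of similar size in both sections for Notch1 and Adpgk and larger in section 1 for Pim1. Apobec3, an antiviral cytidine deaminase, was at 15.0 and 4.97 and at 7.20 and 3.25, with a log2 difference of -1.43 (SE 0.46). Sorl1, a sorting receptor, was at 11.5 and 2.26 in section 1 and had 20 counts in GFP-low and 0 in GFP-high cells of section 2, with a fitted log2 difference of -2.60 (SE 0.70). The edgeR adjusted p was 0.00736 for Notch1 and Adpgk, 0.0166 for Pim1, 0.0480 for Apobec3 and 0.00775 for Sorl1.

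Markers of other cell types were summed in the same groups. Unscaled and per 10000 gene counts, erythroid markers (5 measured) were at 192 in GFP-low and 93.2 in GFP-high cells of section 1, and at 58.3 and 53.7 in section 2. Monocyte and neutrophil markers (12 measured) were at 183 and 73.3, and at 57.0 and 33.7. Stellate and mesenchymal markers (7 measured) were at 148 and 68.6, and at 68.2 and 49.997. Endothelial markers (9 measured) were at 133 and 59.1, and at 42.0 and 35.3. B lineage markers (7 measured) were at 86.6 and 35.0, and at 23.9 and 14.2. Macrophage markers (7 measured) were at 528 and 396, and at 229 and 208. Unscaled, these 6 sums were lower in GFP-high cells of both sections. Ctsb held 7381 of the 8715 macrophage marker counts in GFP-low cells of section 1. Its TMM-scaled log2 difference was 0.02 (SE 0.37). T and NK markers (10 measured) went from 26.3 to 66.2 in section 1 and from 15.7 to 11.6 in section 2. Megakaryocyte markers (4 measured) went from 48.5 to 40.2 and from 19.5 to 28.9. Cholangiocyte markers (6 measured) were slightly higher in both, at 15.8 and 18.5 and at 6.46 and 7.37. The TMM factors of section 1 were 1.381 for GFP-low and 1.048 for GFP-high cells. Dividing by them narrows the falls in section 1. It leaves the macrophage sums there about level and turns the direction of the megakaryocyte sums.

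Some sums contain genes that were called, so they were also taken without them, again unscaled. Erythroid markers without Cd24a were at 113 and 78.1 in section 1 and at 41.9 and 44.2 in section 2, so that in section 2 the sum was no longer lower. Monocyte and neutrophil markers without Itgb2 and Itgam were at 136 and 62.9, and at 44.8 and 28.9. Stellate and mesenchymal markers without Col1a1 were at 73.9 and 50.6, and at 33.6 and 31.1. T and NK markers without Gzma were at 19.02 and 38.3, and at 13.4 and 10.5.

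Some defining markers were at 0 in GFP-high cells. Among these were Ly6g, Vwf and Cd3d in section 1, and in section 2 Cd83, Ly6c1, Cd79a, Ms4a1, Cd3g, Cd8b1, Gzmb, Prf1 and Spp1. The GFP-high sums held 21136 and 19001 gene counts, against 165054 and 95918 in the GFP-low sums. In GFP-low cells of section 2, Cd79a had only 14 counts and Gzmb 6, and 1 T and NK marker was at 0. A count of 0 was therefore not read as absence of the cell types that these markers define. The part of these markers in the gene results was not tested beyond restricting the cells. Among hepatocyte cells without any count of another cell type's markers, 124 genes had enough counts, 0 were called and 3 had an unadjusted p under 0.05 (edgeR). Only 5 of the 15 genes could be tested there, all in the same direction, with a log2 difference of -1.72 for Notch1, -1.43 for Spib, -0.80 for Col1a1, -0.28 for Pim1 and 0.43 for Arg1. With the 7 rule genes required to make up at least 10 counts, 5 genes were called, 4 of them among the 15 (Cd24a, Fgf23, Gp1bb and Gzma).

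**Figure D5:**
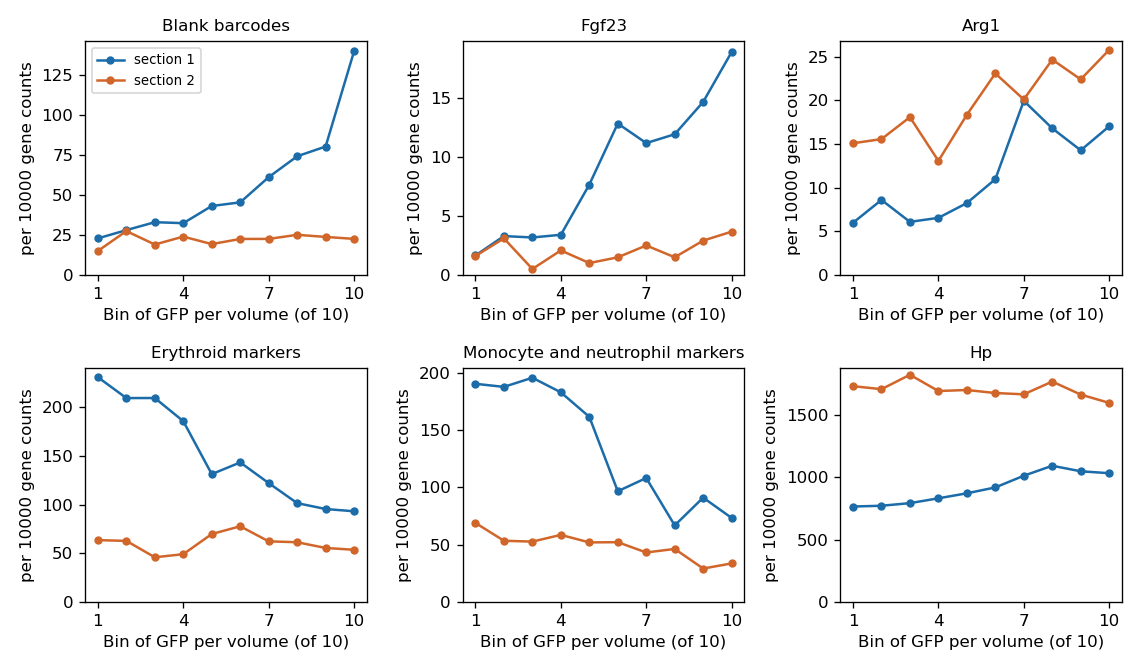
Unscaled level per 10000 gene counts (vertical axes, from 0) of blank barcodes, Fgf23, Arg1, erythroid markers, monocyte and neutrophil markers and Hp by the 10 equal bins of GFP signal per volume (horizontal axes), with 1 line per section. In section 1 blanks go from 22.95 to 140 while monocyte and neutrophil markers go from 190 to 73.3; in section 2 blanks stay between 15.1 and 27.5.

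Hepatocyte genes were not called, apart from Arg1. The 18 tested markers of hepatocytes had a median log2 difference of 0.45, with 16 above 0, against a median of -0.01 over all 332 genes, of which 163 were above 0. The list includes the 7 genes of the rule, which helped to choose the cells. F2, the gene of prothrombin, was at 437 in GFP-low and 733 in GFP-high cells of section 1 and at 742 and 815 in section 2, with a log2 difference of 0.44 (SE 0.46, edgeR adjusted p = 0.688). Hp, which encodes haptoglobin, was at 585 and 985 in section 1 and at 2023 and 1970 in section 2, with a log2 difference of 0.36 (SE 0.56, edgeR adjusted p = 0.804). Igfbp2, a binding protein of insulin-like growth factors, was at 325 and 495 in section 1 and at 2127 and 1947 in section 2, with a log2 difference of 0.24 (SE 0.54, edgeR adjusted p = 0.895). These abundant genes stood higher in GFP-high cells of section 1 and about level in section 2.

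The scaling moves such genes. Without TMM the median of all genes became -0.25 and that of hepatocyte markers 0.21, so their gap to all genes stayed near the TMM value while the levels themselves shifted. In section 1, Pck1, which starts gluconeogenesis, was at 83.3 and 97.1 after scaling, and unscaled at 115 and 102. Its direction in section 1 therefore turns with the scaling.

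Genes of the lobule's zones gave no call besides Arg1. Of 14 tested pericentral genes 0 passed, with a median log2 difference of 0.17, and none of the 14 had an unadjusted p under 0.05 (edgeR). Without TMM that median was -0.07. Glul, the glutamine synthetase of the cells around the central vein, had a log2 difference of 0.34 (SE 0.30), and Cyp2e1, a pericentral cytochrome P450, had -0.07 (SE 0.31). Of 11 periportal genes 1 passed, Arg1, with a median of 0.56 and 9 above 0. Ass1, which makes argininosuccinate in the urea cycle, was at 20.8 and 32.1 in section 1 and at 60.1 and 85.2 in section 2, with a log2 difference of 0.56 (SE 0.30, edgeR adjusted p = 0.323). Cyp2f2, a periportal cytochrome P450, was at 12.8 and 28.5, and at 14.8 and 18.2, with a log2 difference of 0.77 (SE 0.35, edgeR adjusted p = 0.202). Ass1 and Cyp2f2 were higher in GFP-high cells of both sections and did not pass. The urea and amino acid list had 1 of 6 called, Arg1 again, with all 6 above 0 and a median of 0.75.

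The other lists of hepatocyte function had no gene past the test. For clotting factors 0 of 5 passed (median log2 difference 0.44) and for plasma and acute phase proteins 0 of 7 (0.40). For the IGF axis 0 of 4 passed (0.41) and for gluconeogenesis and glycolysis 0 of 7 (-0.06). Genes of the rule, which helped to choose the cells, are 3 of the 5 clotting factors. They are also 2 of the 7 plasma proteins and 2 of the 4 IGF genes, so these 3 medians are not independent of the choice of cells. For xenobiotic enzymes 0 of 6 passed (0.12), for bile acids and lipids 0 of 9 (0.37), for hepatocyte transcription factors and junctions 0 of 8 (0.50) and for Wnt targets and receptors 0 of 10 (0.23). At an unadjusted p under 0.05 (edgeR) lay 2 xenobiotic enzymes, 1 gene of the transcription factor list and 0 of the other 6 lists. Hnf4a was at 37.4 and 51.0 in section 1 and at 43.8 and 68.3 in section 2, with a log2 difference of 0.54 (SE 0.30, edgeR adjusted p = 0.329). Axin2, a feedback target of Wnt signalling, had 0.34 (SE 0.40).

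Lists of cell state had few calls. In the cell cycle list 0 of 5 passed, with 1 at an unadjusted p under 0.05 (edgeR). Mki67, a marker of dividing cells, was at 104 and 43.4 in section 1 and at 16.7 and 15.0 in section 2, with a log2 difference of -0.83 (SE 0.33, edgeR adjusted p = 0.145). In the stress and immediate early list 1 of 4 passed, Pim1, and Btg2, an antiproliferative gene, had a log2 difference of -1.03 (SE 0.35, edgeR adjusted p = 0.0728). In the interferon and innate sensing list 1 of 6 passed, Apobec3. Ifitm3, an interferon-induced membrane protein, had a log2 difference of 0.20 (SE 0.37). Over all genes 4.52% were called, 3.01% lower and 1.51% higher. Lower were 1 of 5 erythroid genes (Cd24a), 2 of 9 monocyte and neutrophil genes (Itgb2 and Itgam) and 1 of 5 stellate and mesenchymal genes (Col1a1). Higher were 1 of 5 T and NK genes (Gzma) and 1 of 3 megakaryocyte genes (Gp1bb). The endothelial (0 of 8), macrophage (0 of 6), B lineage (0 of 5) and cholangiocyte (0 of 2) lists had no edgeR call, with 1 B lineage gene at an unadjusted p under 0.05 and 0 in the other 3. Klf1, a transcription factor of red cell precursors, went against the summed erythroid markers, at 28.5 and 56.0 in section 1 and at 16.2 and 19.5 in section 2, with a log2 difference of 0.67 (SE 0.32, edgeR adjusted p = 0.252).

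The same split was made by DAPI and by PolyT signal. These comparisons use the same hepatocyte cells in other groups, so their values are given side by side. Ranked by DAPI per volume, 1 of 321 genes was called, or 0.312%: Igfbp2 was lower, with a log2 difference of -0.47 (SE 0.06, edgeR adjusted p = 0.00776). Ranked by PolyT per volume, 20 of 321 genes were called, or 6.23%, of which 16 were higher (4.98%) and 4 lower (1.25%). Among the higher ones were the erythroid markers Cd24a, Car2, Klf1 and Epor, and 1 of 5 cell cycle genes, Mki67. Mki67 had a log2 difference of 1.56 by PolyT (SE 0.19, edgeR adjusted p = 0.00014) and -0.83 by GFP.

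Cd24a and Pim1 were called in both rankings, with opposite signs. Cd24a had 2.43 (SE 0.28) by PolyT and -1.44 by GFP, and Pim1 had 1.65 (SE 0.25) by PolyT and -1.39 by GFP. Arg1 had 0.49 (SE 0.26, edgeR adjusted p = 0.353) by PolyT and 0.20 (SE 0.40, edgeR adjusted p = 0.928) by DAPI. Fgf23 had 0.36 (SE 0.55) by PolyT and 0.23 (SE 0.53) by DAPI, and Rab17 had 0.34 (SE 0.54) and 0.27 (SE 0.54). No gene that was higher by GFP passed the test in the DAPI or the PolyT ranking. Over all tested genes, only 0.312% passed by DAPI and 6.23% by PolyT. With shares this low, few or none of the genes higher by GFP would be expected to pass. Their absence was therefore not read as particular to GFP. Whether the rankings differ for the genes named here was not tested.

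How GFP was turned into a ranking decided which genes were called. With GFP signal not divided by volume, 90 genes were called (41 higher and 49 lower), and all 15 genes changed sign. With the part of GFP not predicted by the other 6 stains, 0 genes were called and 18 had an unadjusted p under 0.05 (edgeR). With the part not predicted by DAPI and PolyT, 13 were called, 10 of them among the 15. Ranked within 10 bins of cell volume, 13 were called, 11 of them among the 15. Ranked within each field of view, 46 of 300 were called, 13 of them among the 15, with Arg1, Cd24a and Col1a1 included. That ranking used only fields with at least 20 hepatocyte cells, so its set of cells is smaller as well. Ranked within 5 bins of total counts, 0 were called and 43 had an unadjusted p under 0.05 (edgeR), while all 15 genes kept their direction at 0.701 to 1.14 times the log2 difference given above. With each cell thinned to 10 counts, 0 of 176 were called and 11 had an unadjusted p under 0.05 (edgeR). Of the 15 genes, 12 had enough counts there, with the same direction in all 12.

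The brightest cells of each section were examined apart. At 1.5 times the hepatocyte median or more there were 40 hepatocyte cells (0.803%) in section 1, in 19 fields, and 69 (0.783%) in section 2, in 15 fields. In section 2, 38 of the 69 lay in 3 fields. Their median DAPI signal per volume was 1.06 and 0.802 times that of the other hepatocyte cells, and their Ttr signal 3.75 and 1.82 times. Over all segmented cells, 262 (1.01%) in section 1 and 3757 (4.37%) in section 2 were this bright, and 10 fields of section 2 were at least 90% such cells. Kept cells this bright held 295 blank counts per 10000 gene counts in section 1 against 64.2 in the others, and 452 against 24.1 in section 2. In hepatocyte cells alone the levels were 98.5 (14 blank counts) against 51.7 in section 1 and 18.9 (2 blank counts) against 22.3 in section 2, so the rise in section 2 was not seen in them.

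Some genes were counted far more often in these bright kept cells. Klf1 was at 1461 per 10000 gene counts against 69.8 in section 1 and at 1195 against 24.1 in section 2. Eps8l3 was at 179 against 0.568, and at 172 against 8.87. Rab17 was at 25.5 against 14.9, and at 425 against 6.19. Arg1 was at 10.9 against 11.3, and at 17.9 against 20.8, so it was not higher there. Without hepatocyte cells at 1.5 times the median or more, 23 genes were called in the GFP comparison, and all 15 remained.

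A high GFP signal was not particular to cells passing the hepatocyte rule. Above the brightness at which the GFP-high group begins lay 9.55% of the other kept cells of section 1 (interval 8.68 to 10.5) and 12.3% of section 2 (11.6 to 13.1). Among cells with fewer than 10 counts the shares were 9.11% and 19.99%. Cells outside the rule with at least 5 counts of macrophage markers were above it in 1.22% of 493 cells in section 1 and in 9.59% of 73 in section 2. Cells with at least 5 counts of erythroid markers other than Klf1 were above it in 0 of 208 and 2 of 29. With Klf1 counted among the markers, they were above it in 7.24% of 304 cells in section 1 and in 59.2% of 98 in section 2.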

How the data were processed

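The files hold MERFISH measurements of 2 mouse liver sections, which the labels call replicates 1 and 2 of 1 group. The deposited tables give raw counts per gene and segmented cell, and the authors' cell metadata give a summed image signal per stain (raw and high-pass filtered), volume and position per cell. The decoding and segmentation software is not given in the sources used here, lengths carry no unit in the headers and were taken as µm. No doublet caller was run, and 0 cell identifiers were shared between sections.

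GFP signal was divided by volume, and cells were ranked within each section. Blank barcodes stayed out of totals and tests. Summed counts were tested with edgeR 4.0.16 (TMM, quasi-likelihood, section as a block, at least 50 counts over 4 sums, Benjamini-Hochberg at 0.05; R 4.3.3); the SE was derived from the log2 difference and F. Levels in single sections use a prior count of 2 on the log2 scale. DESeq2 1.42.0 was an alternative. The block is the section that both groups come from. The test was tried on simulated data. Intervals are Clopper-Pearson (SciPy 1.17.1) and cover counting error only.

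Genes named are all 15 called genes, the 7 rule genes, 6 position genes, Cyp2f2, Hp, Mki67 and the 2 genes with the most counts per list, except 1 gene that is not reported here; Hal and Eps8l3 were named after their values were seen. Members, lists and rules were chosen with earlier results of these data known. The number of genes named per list was lowered to 2 after seeing how many changed sign with GFP undivided.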

Additional observations from a re-analysis of the deposited data

How the results depend on the processing

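The count of 15 genes differing by GFP signal depended on most choices. It was 0 without TMM, with DESeq2, with no replicate block, with the highest 25% against the lowest 25% (55 at an unadjusted p under 0.05), with the highest 5% as GFP-high (32), with cells thinned to 10 counts (11), within 5 bins of counts, with a larger minimum share of rule genes per cell (4), in cells without counts of other cell type markers, and with the residual on all 6 other stains. It was 6 with summed volume as offset, 9 with the upper against the lower 50%, 2 with the high-pass GFP signal, 7 in cells with at least 20 counts and 5 with rule genes at 10 counts or more. It was 90 with GFP undivided, 29 with GFP divided by PolyT and 46 within fields of view that held at least 20 hepatocyte cells. It was 26 without fields mostly in the GFP-high group and 23 without the brightest cells. In the other alternatives it was between 10 and 21. Leaving out those fields, the brightest cells or the rule genes, the residual on 6 stains and cells with 0 blanks were chosen after seeing the data. The 1 call by DAPI became 15 without TMM, 13 at a minimum of 10 counts, 14 with no minimum, 11 at a minimum of 200, and 0 with the volume offset, DESeq2 or no replicate block. The 20 calls by PolyT became 8 with the volume offset, 2 with DESeq2 and 0 with no replicate block (10 unadjusted). The mean log2 ratios of DAPI, PolyT and Ttr and the mean periportal and pericentral shares moved by less than 1 SD between sections. DAPI still turned negative within fields of view, and the mean Ttr ratio fell to 0.091 with the residual on 6 stains. That SD rests on 2 sections, so leaving out 1 of them cannot move a mean by 1 SD. For Ttr it was 1.36, as large as the mean, so this limit is loose and does not show that the values are stable.

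Of 56 named genes, 40 changed sign with GFP undivided and passed the test in the main fit, in that fit or in both. Sign changes of genes that passed in neither fit were not counted. The log2 differences there were -0.69 for Fgf23, -0.091 for Rab17, -0.13 for Gp1bb, 1.11 for Cd24a, 0.89 for Adpgk, 0.35 for Notch1, 0.50 for Itgb2, -0.30 for Gzma, 0.73 for Col1a1, 0.79 for Sorl1, 0.69 for Pim1, -0.30 for Arg1, 0.96 for Spib, 0.90 for Itgam and 0.92 for Apobec3. They were -0.67 for F2, -0.66 for Apoh, -0.59 for Fga, -0.74 for Fgb, -0.73 for Igfbp2, -0.59 for Igfbp4, -0.46 for Gulo, -0.47 for Pck1, -0.47 for Ass1, -0.58 for Hsd17b13, -0.55 for Hp, -0.46 for Fn1, -0.47 for Sord, -0.41 for Por, -0.28 for Lrp1, -0.45 for Acsl1, -0.51 for Gjb1, -0.39 for Hnf4a and -0.53 for Cxcl12. They were 0.98 for Mki67, 0.91 for Btg2, 0.46 for Csf1r, 0.73 for Ncf1, 1.35 for Ighm and 0.61 for Thbs1. Undivided signal ranks large cells first. Arg1 was at -0.35 with GFP divided by PolyT, Fgf23 at -0.22 and Gzma at -0.0030 with the residual on 6 stains, and Gzma ran from -0.93 without replicate 1 to 2.29 without replicate 2. The cause of these changes was not tested. Leaving out a section leaves 1 sum per group and no test.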
